A study of Oryctolagus cuniculus with 14 samples.

Results

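In 14 rabbit corneas, 289 of 23669 genes were expressed in naive corneas and stood higher in both groups of corneas exposed to sulfur mustard. All corneas came from New Zealand White rabbits. The exposed eyes had met the vapor of sulfur mustard, and the corneas were taken at 4 weeks from 5 eyes scored clinically impaired and 5 scored clinically non-impaired, beside 4 corneas of naive eyes that carry the same time label. The signs behind the clinical score, the dose and the age and sex of the animals are not given in the sources used here. Whether each cornea of a group stands for its own animal is not stated, so the spread between libraries may be technical.

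The 289 genes were chosen from their own values in these libraries. Each library's counts were scaled to counts per 1000000 of its total (CPM), and the median CPM of a group was taken. A gene was included if its naive median was at least 0.5 CPM, if both exposed medians were at least 2 CPM and at least 2 times the naive median, and if the impaired median was below 4 times the non-impaired median. They made up 1.22% of all gene IDs and 2.98% of the 9700 genes with a naive median of at least 0.5 CPM. All 3 contrasts between the groups entered this choice, so the ratios below are descriptions without tests.

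Sulfur mustard is an alkylating vesicant that reacts with DNA, proteins and glutathione. The cornea is a transparent tissue without blood vessels, built of a stratified epithelium, a collagen-rich stroma kept by keratocytes, and an inner endothelium. After an ocular exposure to sulfur mustard, some eyes are known to develop a late injury with inflammation, ingrowth of vessels and epithelial defects, whereas others look healed. The genes are known here by Ensembl rabbit IDs alone, since 0 of the 23669 IDs could be matched to a symbol in the gene table used, so neither their functions nor the markers of corneal and other cell types could be examined. In RNA from whole tissue, more cells of a type and more RNA per cell cannot be told apart.

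Total counts per library lay between 12002876 and 17488019. Of all gene IDs, 10048 had enough counts to be tested, and these included all 289 genes. The lowest member had 29 counts over the 4 naive libraries together, and 20 members had fewer than 50, so their naive levels carry a large counting error. A single member had a naive library without counts, and a single member had an exposed library without counts. One library stood apart in these genes, impaired 4. The share of counts, the median spread over all members and the calls between the exposed groups are given with and without it. Most other results are given with it alone.

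The 289 genes took 0.730% ± 0.084 of the counts in naive corneas (SD, n = 4) and 2.90% ± 0.32 in non-impaired ones (SD, n = 5). Impaired corneas gave them 4.13% ± 1.98 (SD, n = 5), and 3.25% ± 0.30 without impaired 4 (SD, n = 4). The single naive corneas lay at 0.744%, 0.715%, 0.629% and 0.833%. The non-impaired corneas lay at 2.62%, 3.24%, 3.13%, 2.98% and 2.5%, and the impaired corneas at 3.18%, 3.64%, 3.27%, 7.63% and 2.92%. Every exposed cornea was thus above every naive cornea, while the exposed groups overlapped. The share in impaired 4 was more than that of any other library. The 10 members that exceeded the impaired median most in impaired 4 did not make up its whole excess: without them the summed level was 46985 CPM in impaired 4 and 20085 to 23101 CPM in the other impaired corneas.

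**Figure D1:**
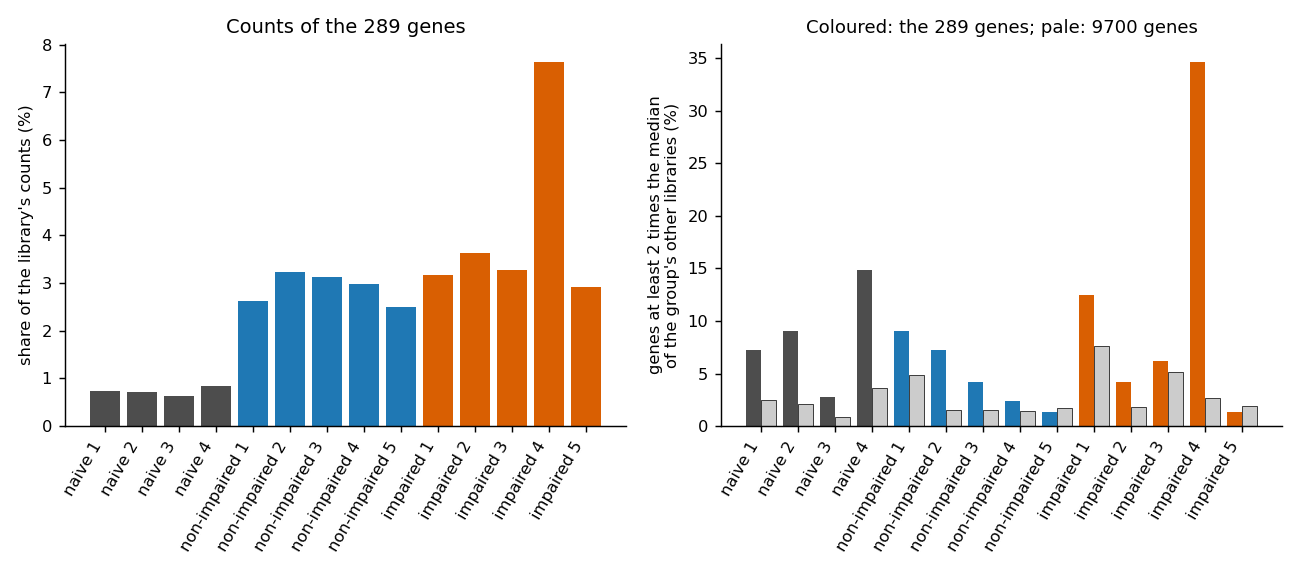
Left, share of each library's counts (%) taken by the 289 genes; right, percentage of genes at least 2 times the median of the group's other libraries, for the 289 genes (coloured) and for the 9700 genes with a naive median of at least 0.5 CPM (pale). Grey bars are naive, blue non-impaired and orange impaired corneas, and impaired 4 stands out in both panels, at 7.63% of counts and 34.6% of the 289 genes.

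The members were mostly genes of low to middle abundance in the naive cornea. The median over members of the naive level was 4.32 CPM (quartiles 1.34 and 17.7), against 22.4 CPM in non-impaired and 27.7 CPM in impaired corneas. In naive corneas 189 members lay under 10 CPM and 12 reached 100 CPM. In non-impaired and impaired corneas 65 and 73 members reached 100 CPM. The members among the 1000 most abundant genes numbered 6 in the naive, 44 in the non-impaired and 53 in the impaired group. Their summed median level was concentrated in few genes. The 10 highest members, ranked anew in each group, held 49.4% of it in naive, 41.3% in non-impaired and 39.0% in impaired corneas.

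The median ratio to naive was 4.39 in impaired corneas (quartiles 2.88 and 8.87) and 3.83 in non-impaired corneas (quartiles 2.64 and 6.45). On the log2 scale these medians were 2.13 and 1.94, where the same medians over all genes with a naive median of at least 0.5 CPM were -0.09 and -0.09. A ratio of at least 4 in both groups was reached by 119 members, of at least 8 by 49, of at least 20 by 25 and of at least 100 by 3. Ratios of at least 8 were found for 80 members in impaired and 57 in non-impaired corneas. Both ratios divide by the same 4 naive libraries.

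Members were more frequent among weakly expressed genes. Of 550 genes with a naive median from 0.5 to 1 CPM, 46 were members (8.36%), and of 622 genes from 1 to 2 CPM, 61 (9.81%). The share was 5.04% from 2 to 5 CPM, 3.42% from 5 to 20 CPM, 1.36% from 20 to 100 CPM and 0.656% of the 1828 genes above that. The median ratio of impaired to naive was 7.74 in the weakest of these classes and 3.80 in the most abundant. Below 1 CPM a gene had to rise by more than 2 times to reach the minimum of 2 CPM, which raises the median ratio of that class. Members with large ratios were not limited to it: 11 members from 5 to 20 CPM and 5 members from 20 to 100 CPM were at least 8 times the naive level in both exposed groups, and none of the 12 above 100 CPM was.

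**Figure D2:**
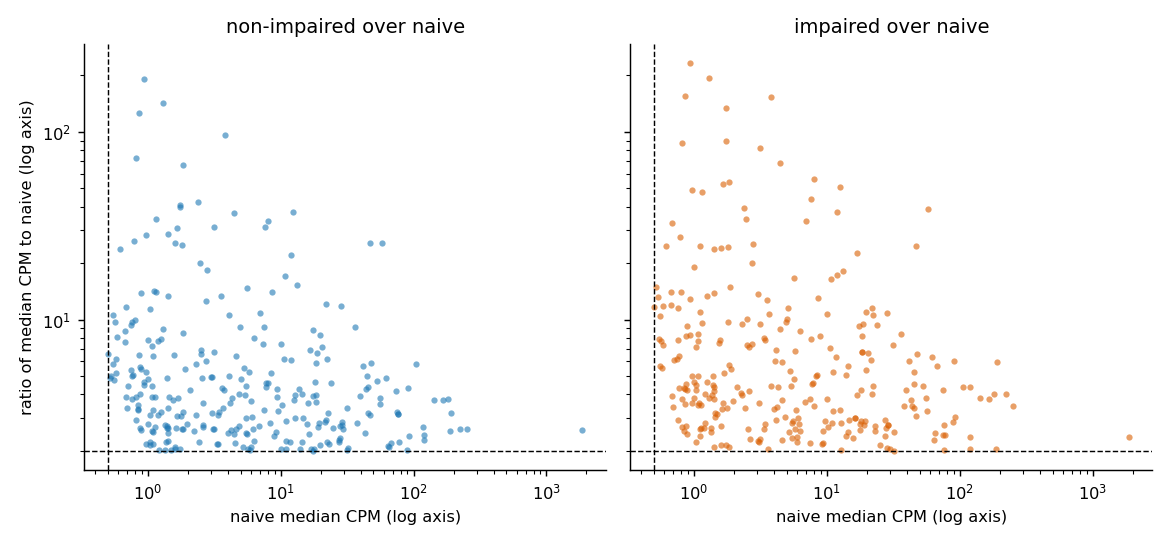
Ratio of the exposed to the naive median CPM (log axis) against the naive median CPM (log axis), for non-impaired (left) and impaired corneas (right); each point is 1 of the 289 genes and dashed lines mark the minimum naive level of 0.5 CPM and the minimum ratio of 2. Ratios reach 191 and 232 among weakly expressed genes, and the member with the highest naive level sits at 2.59 and 2.36.

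In the fit over all tested genes, 272 of the 289 members were called higher in impaired than in naive corneas (quasi-likelihood test of edgeR, p adjusted by Benjamini-Hochberg, threshold 0.05), where 19.8% of all tested genes were called higher. In non-impaired corneas 246 members were called higher than naive, beside 12.8% of all tested genes. No member was called lower than naive in either group, where 15.8% of all tested genes were in impaired and 9.99% in non-impaired corneas. These counts follow from the choice of the members and carry no evidence of their own. Both calls were met by 245 members, where 8.66% of all tested genes met both. A further 27 members were called in impaired corneas alone, where 11.1% of all tested genes were, and 1 in non-impaired corneas alone, where 4.11% were. In neither were 16 members called, where 76.1% of all tested genes were not. The 16 had a median naive level of 1.59 CPM and a median smaller ratio of 2.95, against 4.91 CPM and 3.61 for the 245.

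The choice of the members by medians of these same libraries also favours an absence of overlap, so the following counts carry no evidence of their own. Of the 289 genes, 243 had every impaired cornea above every naive cornea, where 12.5% of all tested genes did, and 239 had every non-impaired cornea above every naive cornea, where 11.6% did. In 220 members (76.1%) all 10 exposed corneas lay above all 4 naive corneas, where this held for 6.75% of all tested genes. In the other 69 at least 1 exposed cornea was at or below a naive one. The highest naive library was naive 4 in 29 of these, naive 2 in 23, naive 1 in 15 and naive 3 in 2. The lowest exposed library was spread over all 10 exposed corneas, with 3 to 10 members each.

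**Figure D3:**
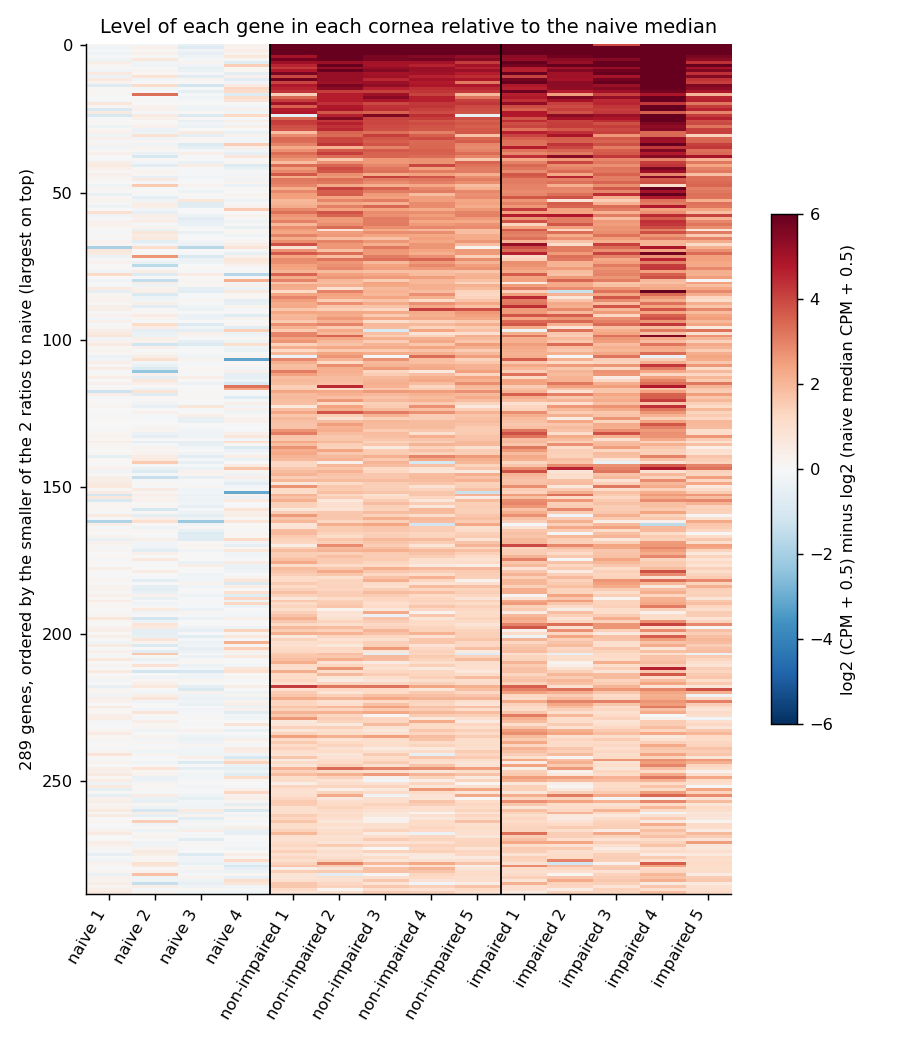
Level of each of the 289 genes (rows) in each of the 14 corneas (columns) as log2 (CPM + 0.5) minus the same for the naive median; red is above and blue below naive, colours are saturated at 6 and black lines part naive, non-impaired and impaired corneas. The 4 naive columns are pale with scattered rows of colour, the 10 exposed columns are red, and impaired 4 is the darkest.

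ENSOCUG00000005445 had the largest rise by the smaller of its ratios. Its naive levels were 1.03, 0.849, 0.566 and 1.2 CPM. In non-impaired corneas it lay at 102, 179, 316, 276 and 113 CPM, and in impaired corneas at 110.1, 218, 20.9, 787 and 431 CPM. The median was 191 times the naive one in non-impaired and 232 times in impaired corneas, and no exposed cornea came near the naive range. Its spread was wide in the impaired group, from impaired 3 at the low end to impaired 4 at the high end.

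ENSOCUG00000015823 was next, with naive levels of 1.03, 1.70, 0.566 and 1.56 CPM. It lay at 158, 374, 235, 179 and 185 CPM in non-impaired corneas and at 150.1, 251, 211, 1004 and 255 CPM in impaired corneas. The ratios of medians were 143 and 194. The exposed groups overlapped, apart from impaired 4, which was above all other libraries.

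The members ranked 3 to 10 by the smaller ratio had naive medians from 0.821 to 12.5 CPM and smaller ratios from 37.3 to 126. The member of rank 4 stood at 3.09, 4.70, 2.62 and 4.55 CPM in naive corneas and at 368, 623, 368, 356 and 381 CPM in non-impaired corneas. In impaired corneas it stood at 355, 587, 797, 2027 and 485 CPM. The member of rank 10 began from a higher level of 11.2, 14.7, 9.48 and 13.8 CPM. It reached 363, 825, 598, 465 and 462 CPM in non-impaired and 321, 607, 721, 2877 and 636 CPM in impaired corneas. In all 8 genes of these ranks every exposed cornea was above every naive cornea, and impaired 4 held the highest value of all libraries.

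At the other end of abundance, the member with the highest naive level was rank 50 among all genes in naive corneas and moved to rank 21 in non-impaired and rank 20 in impaired corneas. Its levels were 2047, 1661, 1688 and 2256 CPM in naive corneas, 4843, 4538, 5462, 5244 and 3819 CPM in non-impaired corneas, and 4064, 5035, 4402, 6340 and 3197 CPM in impaired corneas. The ratios of medians, 2.59 and 2.36, were close to the minimum of the rule, yet the naive and exposed libraries did not overlap. This gene held 26.8% of the summed naive median level of the members.

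The member of rank 2 by naive level differed in this respect. It had 329, 168, 178 and 645 CPM in naive corneas and 735, 661, 1049.8, 663 and 663 CPM in non-impaired corneas, so that naive 4 nearly reached the exposed level. In impaired corneas it spread from 315 CPM in impaired 1, below naive 1, over 1695, 695 and 882 CPM to 1819.8 CPM in impaired 4. Of the 10 most abundant, the members of ranks 7 and 8 varied least across the naive corneas. The former had 161, 183, 155 and 170.1 CPM there, 552, 713, 615, 614 and 494 CPM in non-impaired and 577, 623, 726, 1368 and 614 CPM in impaired corneas. The latter had 142, 145, 141 and 136 CPM in naive corneas, 461, 818, 525, 531 and 463 CPM in non-impaired and 438, 456, 658, 1871 and 541 CPM in impaired corneas.

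Between the exposed groups most members lay at similar medians. The ratio of impaired to non-impaired was from 0.67 to 1.5 in 192 members (66.4%), above 1.5 in 78 (27.0%) and below 0.67 in 19 (6.57%). It was above 1 in 195 members. The median log2 ratio was 0.19 over the members and -0.03 over all genes with a naive median of at least 0.5 CPM. With group means in place of medians these values were 0.45 over the same 289 genes, an alternative tried after seeing the data, and -0.01. When the members were also chosen anew by means, the median over the 302 so found, 258 of them among the 289, was 0.36. By medians it was 0.32 without impaired 5 and 0.26 without impaired 4, with the members chosen anew each time. Group means were not computed without impaired 4. The median log2 ratio of single impaired libraries to the non-impaired medians had an SD of 0.30 (n = 5). This SD covers the impaired corneas alone and leaves out the spread of the non-impaired ones. It was taken against medians and is not an error of the group difference. Neither the 0.19 nor the 0.45 is judged by it.

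Against the non-impaired group, the fit called 49 members higher in impaired corneas, 17.0% of the members, beside 18.4% of all tested genes. It called 6 lower, 2.08%, beside 14.4%. The rule capped this ratio at 4 and required both exposed groups to be above naive, so the counts are read no further. The call of 6 depended on single libraries: it was 3 without impaired 3, without non-impaired 2 or without non-impaired 3, and 17 without impaired 4. The 49 called higher became 35 without impaired 4. The share of all tested genes called in these fits is not given, so the changes are not read as particular to the members. Impaired and non-impaired libraries were fully separate in 18 members that were higher in impaired, 6.23% of the members, where 11.8% of all tested genes were. They were so in 2 that were lower, 0.69% of the members, where 7.16% of all tested genes were.

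**Figure D4:**
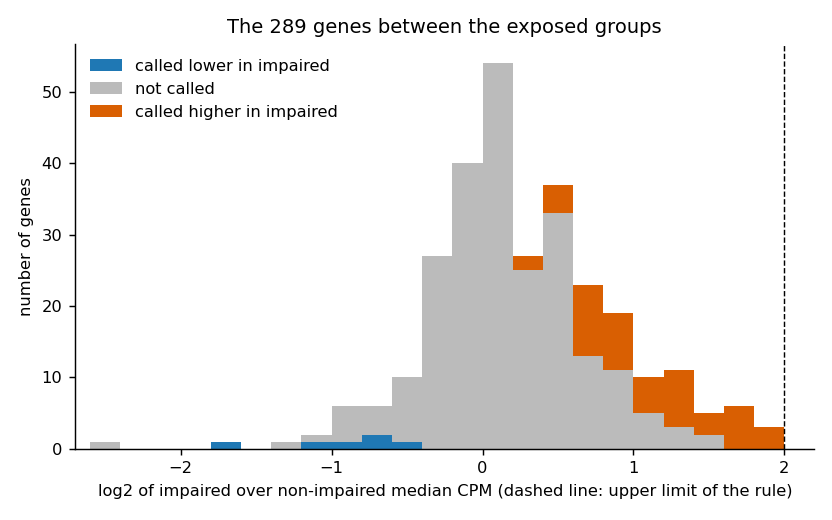
Number of genes by log2 of the impaired over the non-impaired median CPM, in bins of equal width, stacked by the call of the edgeR fit; the dashed line marks the upper limit of the rule, a ratio of 4. Most of the 289 genes lie around 0, with 49 called higher (orange) and 6 called lower (blue) in impaired corneas.

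The 5 members with the highest ratio of impaired to non-impaired had ratios from 3.35 to 3.72 and were all called. The highest stood at 1.83, 3.53, 1.77 and 1.80 CPM in naive corneas, at 4.75, 4.23, 4.91, 4.82 and 3.44 CPM in non-impaired corneas and at 17.7, 22.0, 13.98, 38.3 and 16.4 CPM in impaired corneas. Every impaired cornea was above both other groups, and naive 2 lay just above the lowest non-impaired cornea. The member of rank 4 by this ratio had 10.7, 7.58, 7.29 and 10.2 CPM in naive corneas. It had 22.7, 17.1, 21.3, 23.1 and 18.3 CPM in non-impaired and 44.8, 72.6, 75.3, 57.6 and 76.3 CPM in impaired corneas, with no overlap between any of the groups.

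Of the 6 members called lower in impaired corneas, ENSOCUG00000025810 had the lowest ratio, 0.298. Its naive levels were 9.84, 13.4, 5.02 and 4.91 CPM. It reached 33.1, 84.0, 62.0, 55.1 and 44.3 CPM in non-impaired corneas, all above naive. In impaired corneas it lay at 9.50, 45.6, 12.8, 26.4 and 16.4 CPM, where 2 of 5 corneas were within the naive range.

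ENSOCUG00000007916 was the next lowest called gene, with a ratio of 0.454. It stood at 3.37, 3.59, 2.41 and 2.70 CPM in naive corneas and at 19.2, 15.1, 19.0, 12.4 and 9.68 CPM in non-impaired corneas. The impaired corneas had 12.6, 6.21, 6.83, 5.05 and 7.47 CPM, above all naive and, except for impaired 1, below all non-impaired corneas. The lowest ratio of any member, 0.178, belonged to a gene that was not called: it had 24.8, 12.3, 12.6, 6.74 and 5.56 CPM in non-impaired corneas and 16.1, 2.18, 5.26, 1.95 and 1.80 CPM in impaired corneas.

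**Figure D5:**
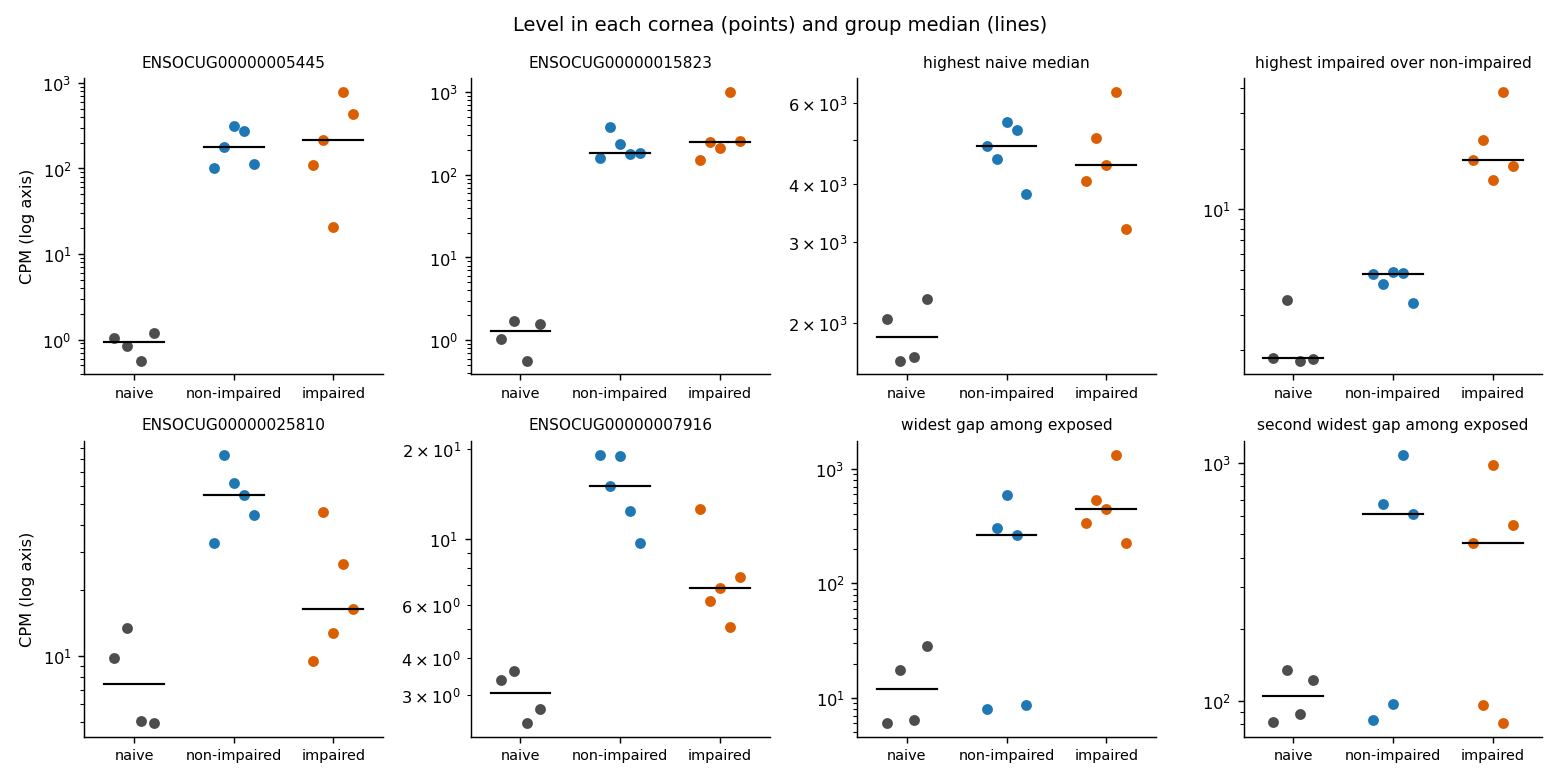
CPM (log axes, scaled per panel) of 8 members in each cornea (points) with the group median (lines); grey is naive, blue non-impaired and orange impaired. The upper row shows the 2 members with the largest smaller ratio to naive, the member with the highest naive median and the member with the highest ratio of impaired to non-impaired; the lower row shows the 2 called members with the lowest such ratio and the 2 whose exposed corneas fell into separate levels.

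The members varied more between corneas of a group than genes at large. The rule did not use this spread directly, but it used medians of the same libraries. Genes that vary more can reach a 2-fold difference of such medians more easily, so the spread is not independent of the choice. The median SD of log2 (CPM + 0.5) over the 5 impaired corneas was 0.61 for members and 0.26 for all genes with a naive median of at least 0.5 CPM. Without impaired 4 these values were 0.45 and 0.25. The median SD was 0.35 against 0.18 in non-impaired and 0.37 against 0.20 in naive corneas. Among all genes the SD was larger at low naive levels, and members were more frequent among them. Classes of naive level match members and all genes in naive corneas alone. By the rule, members had higher medians in exposed corneas, so the exposed SDs are not matched for level. Within these classes the impaired SD, taken with impaired 4 included, was still larger for members. It was 0.75 against 0.40 from 0.5 to 1 CPM and 0.59 against 0.21 from 20 to 100 CPM, and was not computed without impaired 4. In the other groups the gap narrowed among weakly expressed genes. From 0.5 to 1 CPM it was 0.45 against 0.36 in non-impaired and 0.42 against 0.37 in naive corneas, and from 2 to 5 CPM 0.38 against 0.34 and 0.41 against 0.31. From 20 to 100 CPM it was 0.23 against 0.14 and 0.27 against 0.15. An SD above 1 was found for 51 members over the impaired (26 without impaired 4), 13 over the non-impaired and 16 over the naive libraries. No share over all genes is given beside these counts, so they are read no further. No test was made of the differences in SD.

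Impaired 4 stood apart from the other impaired corneas. In it, 100 members (34.6%) were at least 2 times the median of the other 4 impaired corneas, where 2.67% of the 9700 genes were. In impaired 1 this held for 36 members (12.5%, beside 7.64%) and in impaired 2 for 12 (4.15%, beside 1.77%). In impaired 3 it held for 18 (6.23%, beside 5.15%) and in impaired 5 for 4 (1.38%, beside 1.94%). Impaired 4 had the highest value of its group in 51.2% of members and in 14.1% of the 9700 genes. Its total of 14863749 counts was within the range of the other libraries, and its TMM scaling factor of 0.924 was the lowest of all 14 libraries. Their part in the result was not tested.

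The 100 members raised further in impaired 4 also had larger ratios to naive, in medians. The impaired ratios include impaired 4, on which the 100 were chosen, so they are partly fixed by that choice. The non-impaired ratios do not include it. For the 100, the median ratio to naive was 9.01 in impaired and 6.31 in non-impaired corneas, against 3.92 and 3.17 for the other 189 members. Their ratio of impaired to non-impaired medians was alike, 1.13 against 1.15. Of the other libraries, non-impaired 2 and naive 4 shared the most such members with impaired 4. In non-impaired 2, 21 members were at least 2 times the median of the other non-impaired corneas, and 17 of these were among the 100, 81.0% of its own list and 17.0% of the other. Over the 9700 genes the lists held 151 and 259 genes and shared 32, 21.2% and 12.4% of them. Naive 4, an unexposed cornea, also shared 17 members with impaired 4, 39.5% of its own list of 43, where over the 9700 genes they shared 39, 11.0% of the list of naive 4. The list of impaired 4 held 34.6% of the members but 2.67% of the 9700 genes, so the shares in the 2 sets are not directly comparable. The 39.5% of naive 4 was near that 34.6%, and the 81.0% of non-impaired 2 was above it. Over the 9700 genes, the 11.0% and 21.2% were both above 2.67%. These lists were chosen on the values, so no test was made.

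The members raised in impaired 1 were mostly others than those raised in impaired 4. Of the 36 members raised in impaired 1, 15 were also raised in non-impaired 1, 41.7% of the former list and 57.7% of the latter. With impaired 3 they shared 14, 38.9% of the former list and 77.8% of the latter, where over the 9700 genes they shared 283, 38.2% and 56.6%. Of the 36, 3 (8.33%) were among the 100 members raised in impaired 4, which were 34.6% of all members. Over the 9700 genes, 20 of the 741 raised in impaired 1 (2.70%) were raised in impaired 4, where 2.67% of all were. In their median the 36 members were at 0.43 times the other impaired corneas in impaired 5 and at 0.60 times in impaired 2. Over the 9700 genes, 251 were raised in both impaired 1 and non-impaired 1, 33.9% and 53.6% of the lists. The sharing of impaired 1 with these corneas is therefore not read as particular to the members.

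Among naive corneas, naive 4 had 43 members (14.9%) at least 2 times the median of the other naive corneas, beside 3.67% of the 9700 genes. Naive 1, 2 and 3 had 21, 26 and 8. One member stood at 14.2, 14.8 and 14.01 CPM in naive 1 to 3 and at 143 CPM in naive 4. The same gene was high in non-impaired 2, at 330.0 CPM, and in impaired 4, at 421 CPM, and lay from 35.5 to 83.7 CPM in the other exposed corneas. This gene was chosen after its values were seen.

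In 2 members the exposed corneas fell into separate levels, with at least 2 corneas on each side of a gap of at least 4-fold in CPM + 0.5 (0.692% of members and 0.258% of the 9700 genes). In the first, non-impaired 1 and non-impaired 5 had 8.08 and 8.71 CPM, within the naive range of 6.004 to 28.3 CPM, while the other non-impaired corneas had 308, 597 and 264 CPM and the impaired corneas 227 to 1333 CPM. The gap was 24.7-fold. In the second, non-impaired 1 and 3 and impaired 2 and 4 had 80.8 to 97.7 CPM, near the naive corneas at 82.2 to 135 CPM, and the other 6 exposed corneas had 458 to 1081 CPM. For these genes the group median describes 3 or more corneas of a group and not the others. Both were singled out after their values were seen.

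In 2 further members single impaired corneas set the spread. One had 12.5, 16.9, 37.6, 964 and 16.6 CPM in impaired corneas, beside 5.90 to 21.6 CPM in non-impaired and 0.801 to 1.56 CPM in naive corneas. The other had 2.92, 0, 11.5, 150.3 and 8.69 CPM in impaired corneas, beside 2.38 to 9.43 CPM in non-impaired and 0.283 to 1.32 CPM in naive corneas. Impaired 4 was the high cornea in both, and both were chosen after their values were seen.

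To see the members in libraries that had not chosen them, the rule was applied without 1 library at a time. It then found 274 to 312 genes, of which 254 to 283 were among the 289. In the exposed library left out, 84.1% (non-impaired 3) to 91.8% (impaired 1) of the genes so chosen were at least 2 times the naive median, where 4.79% to 9.07% of all genes with a naive median of at least 0.5 CPM were. In the naive library left out, 70.2% (naive 4), 73.1% (naive 1), 76.0% (naive 2) and 89.4% (naive 3) were at or below 0.5 times both exposed medians, beside 3.46% to 5.03% of all such genes. The side of the ratio that was not left out had still been used in the choice, so these shares are given without a test.

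The limits of the rule cut through a continuous range of values. The member nearest to the limit on non-impaired over naive had a ratio of 2.002, and the nearest gene outside it 1.99; 240 genes failed the rule by this limit alone. By impaired over naive the nearest values were 2.01 and 1.997, and 90 genes failed by it alone. The nearest naive medians were 0.505 and 0.498 CPM, and 64 genes failed by the naive minimum alone. The upper limit of 4 on impaired over non-impaired left out 14 genes, the nearest at 4.47, and the highest member was at 3.72. Within 1.1 times the limit on non-impaired over naive lay 29 members and 34 genes outside.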

How the data were processed

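Corneal RNA was sequenced in 14 libraries. The deposited values are raw counts per Ensembl rabbit gene ID, 1 file per library; whole numbers were found throughout. Per the submitters' processing notes, bcl2fastq 2.17, TopHat2 2.1.0, Cufflinks 2.0.2, DESeq and build OryCun2.0 were used. The counting program and its strand setting are not given in the sources used here, so counts of overlapping, antisense or near-identical genes are uncertain. Of 38822 RefSeq genes in the table used (assembly mOryCun1.1), none carried one of the 23669 IDs. Lists of marker and pathway genes could therefore not be applied, and no sequences are shown.

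Groups were taken from the clinical status. No 2 libraries of a group agreed within sampling noise (lowest chi-square per degree of freedom 14.1). CPM are counts over the column total. Tests used edgeR 4.0.16 in R 4.3.3 (default expression filter, TMM, robust quasi-likelihood fit of all 3 groups, Benjamini-Hochberg over 10048 genes), tested on simulated data. Alternatives used DESeq2 1.42.0, limma 3.58.1 with voom, other scalings and filters, group means, a minimum absolute log2 fold change of 1, fits on 2 groups, and leaving out libraries. Spread was taken on log2 (CPM + 0.5).

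The genes and the rules to describe them were chosen with earlier results of these data known. IDs are printed for the 2 members with the largest smaller ratio to naive and the 2 called members with the lowest ratio of impaired to non-impaired. Others are given by rank (10 by naive level, 10 by smaller ratio, 5 at each end of impaired over non-impaired), or were chosen after their values were seen where so stated. Of the members with the largest spread, those named were also chosen after their values were seen.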

Additional observations from a re-analysis of the deposited data

Results flagged for a closer look

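Single libraries far from the others of their group were looked for in the summed level of the members and in 29 members given by rank, over 90 groups of 4 or 5 libraries. The gap of the extreme library to its nearest neighbour, divided by the range of the group, was above Dixon's critical value in 26 cases. That value is set to be passed by about 1 in 20 independent groups of normally distributed values. Here CPM were used, the members were chosen on their values, and all of them share the same 14 libraries. No chance rate can therefore be set beside the 26 cases. Impaired 4 was the high library in 13 of these.

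In impaired 4 the summed level of the members was 76303 CPM. By rank of the smaller ratio to naive, it held 1004 CPM of the member of rank 2, 396 CPM of rank 3, 2027 CPM of rank 4, 523 CPM of rank 5, 219.9 CPM of rank 6, 541 CPM of rank 7, 2103 CPM of rank 8, 427 CPM of rank 9 and 2877 CPM of rank 10. It also held 1368 and 1871 CPM of the members of ranks 7 and 8 by naive level, and 50.5 CPM of the member of rank 5 by lowest impaired over non-impaired.

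Non-impaired 2 was the high library of its group in 5 of the same genes. It had 169 CPM of the member of rank 3 by smaller ratio, 623 CPM of rank 4, 145 CPM of rank 5, 175 CPM of rank 8, and 818 CPM of the member of rank 8 by naive level. Non-impaired 5 was low in the member of rank 7 by smaller ratio, at 40.9 CPM, and non-impaired 3 was high in the member of rank 2 by naive level, at 1049.8 CPM.

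Impaired 1 was high at 406 CPM in the member of rank 9 by naive level and at 16.1 CPM in the member with the lowest ratio of impaired to non-impaired. Among naive corneas, naive 2 was high at 386 CPM in the member of rank 3 by naive level and at 3.53 CPM in the member with the highest ratio of impaired to non-impaired. Naive 3 was low at 76.3 CPM in the member of rank 9 by naive level, and naive 4 was high at 5.75 CPM in the member of rank 8 by smaller ratio.

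Over all 289 members, impaired 4 was such a high library in 56 (19.4%). Non-impaired 1 was so in 14, non-impaired 2 in 13, naive 2 in 12, naive 4 in 12 and impaired 1 in 8. These counts cover the members alone, and no share over all genes is given beside them. Whether they exceed those of other genes was therefore not tested.

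The exposed groups differed in their distance from naive by the direct comparison in 55 members. The 49 called higher in impaired corneas were 17.0% of the members, beside 18.4% of all tested genes, and the 6 called lower were 2.08%, beside 14.4%. The rule used this comparison too, so nothing is read from these counts.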

How the results depend on the processing

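Of 178 recomputed values, 169 kept their direction and stayed within 1 SD between libraries (medians and sums) or 1.5 times the reported count. Among these, the median log2 ratio of impaired to non-impaired still moved from 0.19 to 0.36 with group means (0.45 over the same 289 genes, tried after seeing the data) and to 0.32 without impaired 5, and the 49 members called higher in impaired than non-impaired corneas became 69 with the Wald test of DESeq2. Members found by the rule numbered 313 with TMM-scaled and 309 with DESeq2-scaled libraries (286 of the 289 each) and 302 with group means (258 of the 289). The scalings moved the median of all genes by at most 0.07 on the log2 scale. Between the exposed groups, the 6 members called lower in impaired corneas became 11 with limma voom, 1 when a log2 fold change of at least 1 in size was asked for, and 19 without impaired 4 and naive 4, which was tried after seeing the data; the 6 were among those called in the first and last. With that minimum fold the 49 called higher became 30, which follows from the stricter call. The cause of the other changes was not tested. For these settings, and with single libraries left out, the share of all tested genes called is not given. The changed counts are therefore not read as particular to the members.

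Leaving out each library in turn gave 3 to 17 members called lower and 34 to 54 called higher between the exposed groups, 258 to 277 called higher in impaired and 219 to 255 called higher in non-impaired corneas against naive. The median log2 ratio of non-impaired to naive was then 1.88 to 1.96, lowest without naive 3. That of impaired to naive was 2.08 to 2.25, and that of impaired to non-impaired 0.17 to 0.32. The mean summed level of the members in impaired corneas was 32497 to 44279 CPM, the lowest without impaired 4. The stricter filter (5 CPM in 4 or more libraries) tested 253 members. No paired analysis was possible because the labels number no replicates; the numbers used here follow the order of deposit, name the libraries and pair none. Depth limits the members with few naive counts most.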
